A study of Homo sapiens with 18 samples.

Results

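Aminoacyl-tRNA synthetases are the enzymes that attach each amino acid to its transfer RNA. From the 25435 rows of gene symbols in the RNA-Seq data set, 36 genes of this family are described, 20 that encode cytosolic enzymes and 16 that encode mitochondrial ones. The members were taken by symbol: cytosolic members carry older names such as AARS, mitochondrial members end in 2, and FARSA and FARSB encode the subunits of the cytosolic phenylalanine enzyme. All 36 had exactly 1 row and all passed the filter on low counts in each comparison.

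The cells were HEK293doxERN2, a HEK293 human embryonic kidney line that carries a FLAG-tagged ERN2 transgene under doxycycline control; ERN2 is a paralog of the ER stress sensor IRE1α (ERN1). All 18 libraries came from this line, so all carry the transgene. There were 6 groups of 3 libraries. Cells were left without doxycycline (uninduced) or given 10 or 100 ng/mL for 24 hours, and at each dose they received DMSO as vehicle or 200 nM thapsigargin for 3 hours. Thapsigargin blocks the calcium pump of the ER and so causes ER stress. No group without the transgene was included, so doxycycline itself and ERN2 cannot be told apart. The labels do not say whether the 3 libraries of a group came from separate cultures, so p-values measure the spread between these libraries, which may be technical.

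Each synthetase recognises 1 amino acid and its tRNAs, and EPRS joins the glutamate and proline activities in 1 protein. In the cytosol, several synthetases are held together with scaffold proteins (AIMP1, AIMP2 and EEF1E1) in the multisynthetase complex, here DARS, EPRS, IARS, KARS, LARS, MARS, QARS and RARS, while the rest are free. Mitochondria translate their own mRNAs with a second set of enzymes, all encoded in the nucleus; GARS and KARS each supply both compartments from 1 gene. Under ER stress the kinase PERK (EIF2AK3) phosphorylates eIF2α, which slows translation while raising that of ATF4. ATF4 is a transcription factor for amino acid synthesis, amino acid transport and, in many cells, cytosolic synthetase genes, and it binds C/EBP-ATF response elements (CARE) together with C/EBP partners.

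Library totals ran from 14876416 to 24652240 counts. The transgene followed its labels at 0 and 100 ng/mL: ERN2 was at 9.10, 6.57 and 7.71 CPM (the usual per-library scaling of counts, after TMM over the 18 libraries) in uninduced vehicle libraries and at 252, 309 and 249 CPM at 100 ng/mL. With thapsigargin in uninduced cells ERN2 had a log2 fold change of 0.65 (standard error 0.17, adjusted p = 0.0168, edgeR quasi-likelihood test). In the same test at 10 ng/mL it had 0.89 (standard error 0.43, adjusted p = 0.235). The level of ERN2 at 10 ng/mL is not given here, so the degree of induction at that dose is not described. Thapsigargin raised DDIT3 (CHOP), a target of ATF4, from 11.5, 9.17 and 9.31 to 153, 156 and 155 CPM in uninduced cells. HSPA5, the ER chaperone BiP, was at 468, 504 and 536 CPM with vehicle and 3096, 4773 and 3046 CPM with thapsigargin. All 6 HEK293 markers had a mean above 1 CPM and summed to 347 to 635 CPM per library. The extraction text names colon crypt cells, but only 2 of 9 colon epithelial markers had a mean above 1 CPM; these 9 summed to 12.9 to 27.4 CPM, with TFF3 at 0 in all libraries. The 4 leukocyte markers summed to 0 to 0.487 CPM and the 3 endothelial ones to 0.211 to 2.67 CPM. Within groups, the deviations of libraries from their group mean were related to the GC content of genes, with Spearman's rho across genes from -0.72 to 0.76. The replicates of the group with 100 ng/mL and thapsigargin were furthest apart, with a rho of 0.75 in replicate 1 and -0.72 in replicate 3 and a Spearman correlation of 0.971 across genes between these 2 libraries.

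In uninduced vehicle cells, cytosolic synthetase mRNAs were mostly more abundant per length than mitochondrial ones. Levels between genes were compared as CPM per kilobase of exon (mean ± SD, n = 3 libraries). Cytosolic genes ran from 6.17 to 59.7 with a median of 34.5, and mitochondrial genes from 1.68 to 48.7 with a median of 10.2. TARS stood at 59.7 ± 5.17, FARSA at 59.4 ± 5.50 and EPRS at 55.8 ± 4.05, neighbours in the order whose difference lay within their SD. At the low end of the cytosolic set was CARS, the cysteine enzyme, at 6.17 ± 0.298. IARS2, the mitochondrial isoleucine enzyme, was at 48.7 ± 4.86, next to IARS at 48.8 ± 3.95, and the pair did not differ beyond their SD. PARS2 (4.08 ± 0.446) and FARS2 (1.68 ± 0.0128) were the lowest of the 36. With the longest transcript as the length the medians were 56.8 and 15.0.

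Promoter sequence was examined because CARE is the site through which ATF4 acts. RefSeq promoter windows on GRCh38.p14, from 250 bases before to 50 after a transcription start, were matched by symbol for 30 of the 36 genes; DARS, LARS, VARS, YARS, AARS2 and VARS2 had none. An exact element, TGATGCAA or its reverse complement TTGCATCA, was found in 6 of 16 cytosolic genes with a window and in 0 of 14 mitochondrial genes. It occurred in 304 of 35116 windows of all genes, 0.866%, and in 1.08% of genes. The 6 genes were AARS, CARS, IARS, MARS, NARS and TARS. The stretches below, 60 bases before and 8 after the match, are printed 5′ to 3′ on the strand of the gene with the element in capitals, to show how close it lay to the start.
AARS: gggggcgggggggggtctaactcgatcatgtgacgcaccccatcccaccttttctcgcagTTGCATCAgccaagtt
CARS: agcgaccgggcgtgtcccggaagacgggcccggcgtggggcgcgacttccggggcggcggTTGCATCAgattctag
IARS: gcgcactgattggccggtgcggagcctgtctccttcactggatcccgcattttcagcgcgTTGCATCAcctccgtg
MARS: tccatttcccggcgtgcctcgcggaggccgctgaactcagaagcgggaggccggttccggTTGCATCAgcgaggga
NARS: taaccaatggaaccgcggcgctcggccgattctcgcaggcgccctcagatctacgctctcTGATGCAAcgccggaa
TARS: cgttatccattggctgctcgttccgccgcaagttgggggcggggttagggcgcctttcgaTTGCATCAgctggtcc
They lie at chr16:70289678-70289753 (minus strand) for AARS, chr11:3057410-3057485 (minus strand) for CARS, chr9:92293695-92293770 (minus strand) for IARS, chr12:57488004-57488079 (plus strand) for MARS, chr18:57621807-57621882 (minus strand) for NARS and chr5:33440907-33440982 (plus strand) for TARS. The first base of the match was at -187 in AARS, -13 in IARS, -4 in MARS, -2 in CARS, 3 in TARS and 15 in NARS, counted from the annotated start, so in 5 of the 6 it lay within 15 bases of the start. In 5 of the 6 the strand of the gene reads TTGCATCA, and in NARS it reads TGATGCAA.

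The looser form TGATGNAA, which holds the exact one, was found on either strand in 7 of 16 cytosolic genes, 1 of 14 mitochondrial genes and 3.62% of all windows (4.46% of genes). It added GARS, in its second window, and YARS2, which are shown because each departs from the exact element by 1 base; the YARS2 stretch is shorter because its match lies near the edge of the window.
GARS: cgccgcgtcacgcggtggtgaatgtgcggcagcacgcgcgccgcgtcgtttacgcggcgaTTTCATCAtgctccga
YARS2: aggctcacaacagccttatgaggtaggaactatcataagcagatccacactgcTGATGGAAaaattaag
These lie at chr7:30594785-30594860 (plus strand) and chr12:32756079-32756147 (minus strand). The ER stress response element of ATF6 and XBP1, CCAAT and CCACG separated by 9 bases, was in none of the 30 genes and in 0.0769% of windows. The UPR element core TGACGTG was in CARS and CARS2 and in 1.97% of windows. A match describes letters in a window and not a bound site.

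Thapsigargin raised cytosolic synthetase mRNAs in uninduced cells, but not all of them. At an adjusted p under 0.01 (edgeR quasi-likelihood test, Benjamini-Hochberg over 14397 genes), 8 of the 20 cytosolic genes rose and 0 fell, and 2 of the 16 mitochondrial genes rose and 0 fell. Among all genes tested 6.45% rose and 4.74% fell. At an unadjusted p under 0.05, 11 cytosolic and 6 mitochondrial genes were higher, and 1 gene of each compartment was lower. Of all 14397 genes, 2703 were higher and 2470 lower at that p. DESeq2 called 0 cytosolic genes and 1 mitochondrial gene lower, against 7.57% of all genes it tested, so the mitochondrial count is near that share. The median log2 fold change was 0.41 for cytosolic genes and 0.09 for mitochondrial genes, against -0.0066 for all genes. All 3 thapsigargin libraries lay above all 3 vehicle libraries for 11 of the 20 cytosolic and 7 of the 16 mitochondrial genes, against 20.0% of all genes. They lay below for 0 cytosolic and 3 mitochondrial genes, a direction whose share over all genes was not computed. In bulk RNA, fewer cells of a kind and less RNA per cell cannot be told apart.

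AARS, the alanine enzyme, was at 230.0, 201 and 219 CPM with vehicle and 455, 576 and 444 CPM with thapsigargin, a 2.29-fold rise with a log2 fold change of 1.19 (standard error 0.12, adjusted p = 2.54e-05). CARS, the cysteine enzyme, was at 64.5, 58.6 and 62.5 CPM with vehicle and 128, 159 and 121 CPM with thapsigargin, with a log2 fold change of 1.15 (standard error 0.12, adjusted p = 4.37e-05). For both, every treated library was clearly above every control library, and the second treated replicate was the highest. YARS, the tyrosine enzyme, was at 165, 168 and 196 CPM with vehicle and 274, 365 and 336 CPM with thapsigargin, with a log2 fold change of 0.89 (standard error 0.12, adjusted p = 0.000307). SARS, the serine enzyme, was at 159.9, 143 and 161 CPM with vehicle and 221, 295 and 255 CPM with thapsigargin, with a log2 fold change of 0.74 (standard error 0.12, adjusted p = 0.000852). Neither gene's groups overlapped, and the first treated replicate was the lowest in both.

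MARS, the methionine enzyme, was at 181, 183 and 211 CPM with vehicle and 262, 357 and 347 CPM with thapsigargin, with a log2 fold change of 0.76 (standard error 0.13, adjusted p = 0.00121). MARS lies on the plus strand at chr12:57475445-57517569 in the GENCODE 29 annotation of GRCh38 and shares 355 exon bases, 5.05% of its own, with DDIT3 on the other strand. Whether strand was used in counting is not given in the sources used here, so reads of MARS and of the strongly raised DDIT3 cannot be told apart in that stretch. GARS, the glycine enzyme of both compartments, was at 122, 138 and 150.2 CPM with vehicle and 182, 276 and 193 CPM with thapsigargin, with a log2 fold change of 0.68 (standard error 0.15, adjusted p = 0.00633). For MARS and GARS the groups were apart, and GARS was far higher in the second treated replicate than in the others. TARS, the threonine enzyme, was at 307, 361 and 355 CPM with vehicle and 455, 588 and 433 CPM with thapsigargin, with a log2 fold change of 0.54 (standard error 0.13, adjusted p = 0.0089), and was likewise highest in that library. FARSA completed the 8 with a log2 fold change of 0.61 (standard error 0.13, adjusted p = 0.006).

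With each of the 6 libraries left out in turn, AARS, CARS, YARS and SARS passed in 6 of 6 fits, MARS in 5 of 6, FARSA and GARS in 3 of 6 and TARS in 1 of 6. The count was 4 without vehicle replicate 1, 5 without vehicle replicate 2 and 5 without thapsigargin replicate 2. Of all genes 5.02%, 7.80% and 6.84% were called in these fits. The 8 genes that passed had a higher median GC content (52.7%) than the 12 that did not (43.9%). With a trend on GC content and length removed from each library, 9 cytosolic genes were called, against 18.8% of all genes. Without that step 11.2% of all genes were called. The part of GC content in the calls was not tested.

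**Figure D1:**
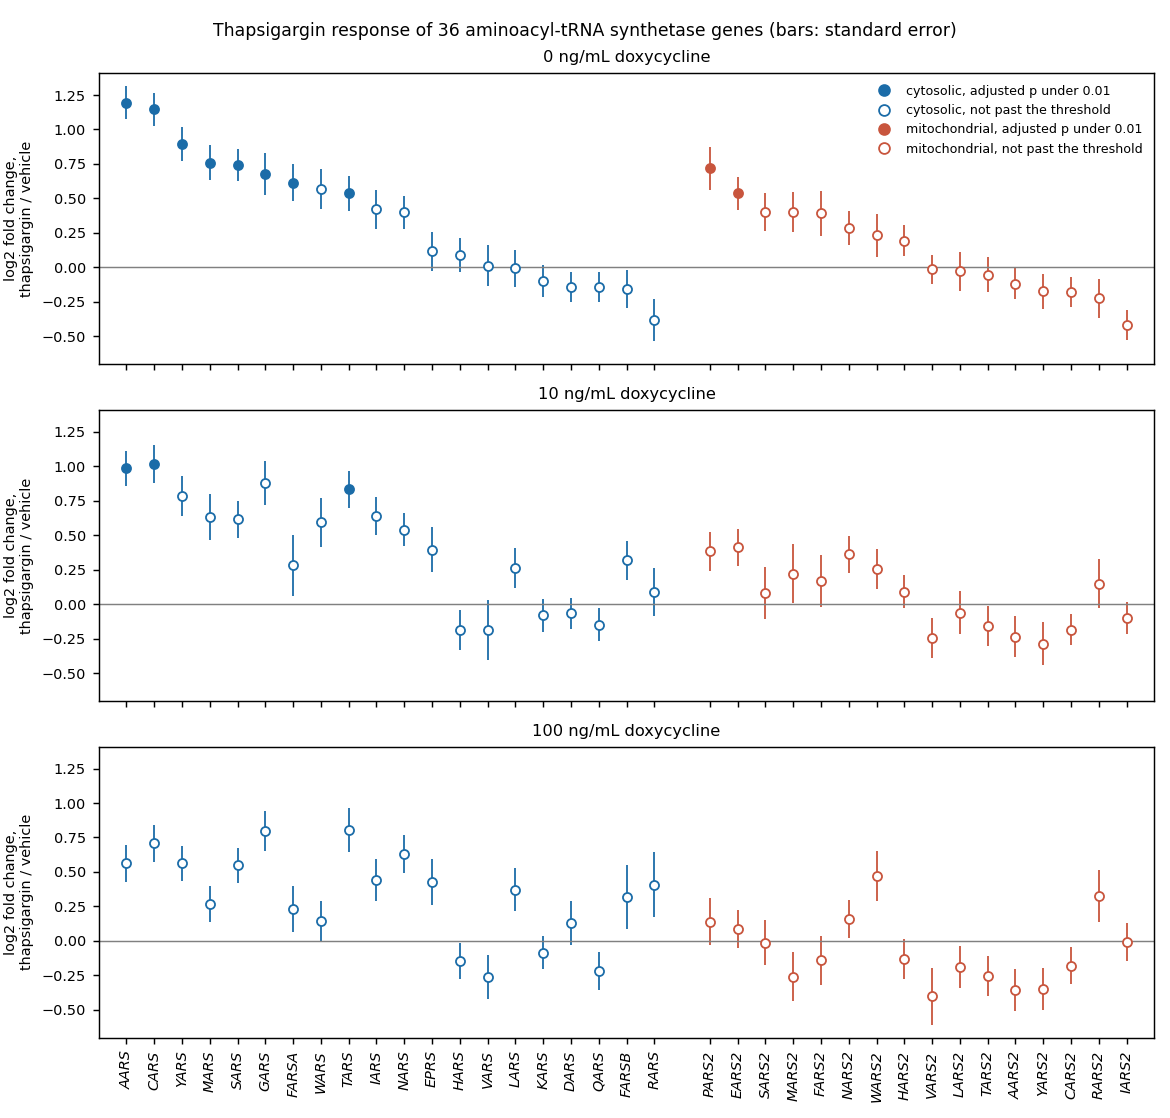
Log2 fold change of each of the 36 genes with thapsigargin against vehicle at 0, 10 and 100 ng/mL doxycycline, with bars for the standard error and filled points for an adjusted p under 0.01. Cytosolic genes (left) reach 1.19 in uninduced cells, where 8 are filled; at 100 ng/mL none is filled.

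Members of the multisynthetase complex and free enzymes were also set side by side. In uninduced cells 1 of the 8 complex members (MARS) and 7 of the 12 other cytosolic genes rose, with median log2 fold changes of -0.05 and 0.59. IARS, the isoleucine enzyme of the complex, was at 328, 384 and 371 CPM with vehicle and 425, 603 and 412 CPM with thapsigargin, with a log2 fold change of 0.42 (standard error 0.14, adjusted p = 0.0475). LARS (-0.01, adjusted p = 0.979), DARS (-0.14, adjusted p = 0.389) and RARS (-0.38, adjusted p = 0.0929) did not pass. The scaffold genes AIMP1, AIMP2 and EEF1E1 had log2 fold changes of -0.35, 0.40 and -0.81, with adjusted p of 0.0963, 0.0423 and 0.12 in edgeR, so 0 of the 3 passed. DESeq2 also called 0. Unadjusted, 1 was higher and 2 were lower at a p under 0.05, where 2703 of all 14397 genes were higher and 2470 lower. At 10 ng/mL doxycycline the medians of the complex and of the other cytosolic genes were 0.17 and 0.60, and at 100 ng/mL 0.32 and 0.56, with 6 of the 8 complex members above 0, so the gap was smaller there. The GC content of the exons was 41.2% (DARS) to 46.6% (KARS) in the complex members other than MARS (53.8%) and QARS (55.2%). In the free enzymes it ran from 41.6% (FARSB) to 62.6% (VARS). MARS also shares exon bases with DDIT3, as given above. Whether the complex differs from the free enzymes as a group was not tested, nor was the part of GC content in the gap.

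KARS, the lysine enzyme of both compartments and a complex member, was at 190.4, 194 and 228 CPM with vehicle and 168, 194 and 207 CPM with thapsigargin. QARS, the glutamine enzyme, was at 211, 182 and 213 CPM with vehicle and 165, 185 and 196 CPM with thapsigargin. KARS had a log2 fold change of -0.10 (standard error 0.11, adjusted p = 0.571), QARS had -0.14 (standard error 0.11, adjusted p = 0.369), and the groups overlapped for both. EPRS was at 282, 326 and 305 CPM with vehicle and 316, 405 and 261 CPM with thapsigargin, with a log2 fold change of 0.12 (standard error 0.14, adjusted p = 0.595), and the groups overlapped, with the third treated replicate below all controls and the second above them. Among the free enzymes below the threshold, WARS, the tryptophan enzyme, was near it at 0.57 (standard error 0.14, adjusted p = 0.0123), as was NARS, the asparagine enzyme, at 0.40 (standard error 0.12, adjusted p = 0.027), whereas VARS was at 0.01 and HARS at 0.09.

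All 6 genes with an exact CARE had a positive log2 fold change with thapsigargin. In uninduced cells these log2 fold changes ran from 0.40 to 1.19 with a median of 0.65, and 4 of the 6 passed (AARS, CARS, MARS and TARS). The 10 cytosolic genes with a window and no exact element ran from -0.38 to 0.74 with a median of 0.10, and 3 passed: SARS, FARSA and GARS, of which GARS had the looser element. The 14 mitochondrial genes with a window ran from -0.42 to 0.72 with a median of 0.21. At 10 ng/mL doxycycline the medians of the cytosolic genes with and without the exact element were 0.74 and 0.30, and at 100 ng/mL they were 0.60 and 0.28. These values are a description, since the element was chosen with the response known.

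**Figure D2:**
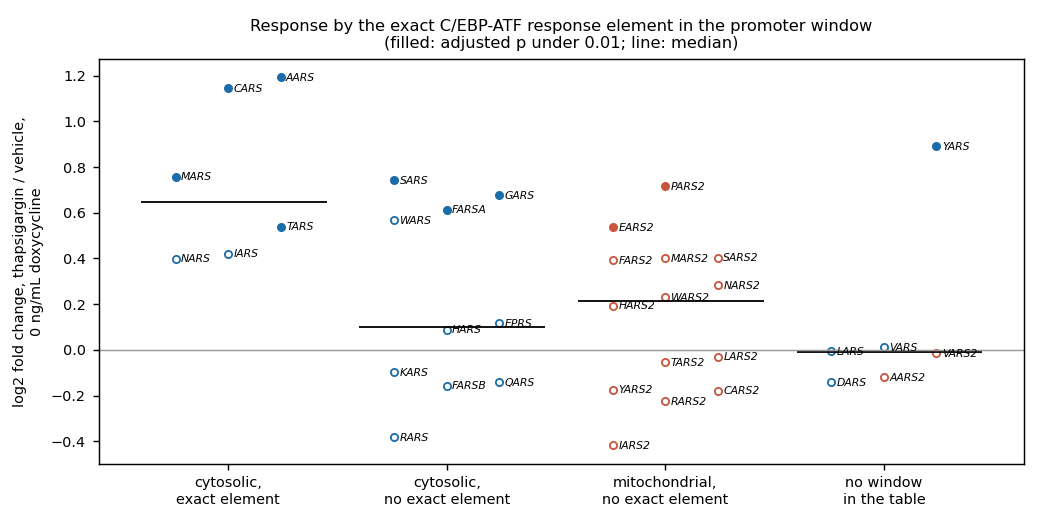
Log2 fold change with thapsigargin in uninduced cells for each gene, split by whether its promoter window held the exact C/EBP-ATF response element; filled points passed an adjusted p of 0.01 and lines are medians. The 6 cytosolic genes with the element lie between 0.40 and 1.19, while the 10 without it spread from -0.38 to 0.74.

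Of the mitochondrial genes, PARS2, the proline enzyme, was at 10.4, 9.93 and 8.40 CPM with vehicle and 13.9, 14.9 and 18.2 CPM with thapsigargin, with a log2 fold change of 0.72 (standard error 0.16, adjusted p = 0.00557). EARS2, the glutamate enzyme, was at 59.9, 63.0 and 70.3 CPM with vehicle and 79.6, 101 and 98.0 CPM with thapsigargin, with a log2 fold change of 0.54 (standard error 0.12, adjusted p = 0.00713). The groups did not overlap for either gene, although PARS2 was among the least abundant members. The amino acids of PARS2 and EARS2 are those that EPRS serves in the cytosol. Within a library EPRS had 27.1, 32.8 and 36.3 times the reads of PARS2 with vehicle and 22.8, 27.1 and 14.3 times with thapsigargin. The ratios overlapped between treatments, and they are not scaled for the exon lengths of 5450 bases (EPRS) and 2347 bases (PARS2). These calls depended on single libraries: PARS2 passed in 1 of 6 fits with a library left out and EARS2 in 2 of 6. The mitochondrial count was 0 when any 1 of the 3 vehicle libraries or thapsigargin replicate 2 was left out, and 1 without thapsigargin replicate 3. Of all genes 5.02% to 7.80% were called in the fits with a count of 0, and 13.0% without thapsigargin replicate 3. EARS2 shares exon bases with UBFD1 on the other strand, whose reads likewise cannot be set apart.

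The mitochondrial gene with the lowest fold change was IARS2, at 184, 225 and 199.7 CPM with vehicle and 153, 161 and 139 CPM with thapsigargin. This is a log2 fold change of -0.42 (standard error 0.11, adjusted p = 0.0152), with all treated libraries below all controls, while that of IARS was 0.42. SARS2 (0.40), MARS2 (0.40) and FARS2 (0.39) were positive without passing (adjusted p = 0.0515, 0.0658 and 0.097), and AARS2, CARS2 and YARS2 lay between -0.18 and -0.12. SARS2 shares 1492 exon bases on its own strand with AC011455.2, and VARS2 shares 1858 with GTF2H4, so their counts are uncertain.

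HARS and HARS2, the cytosolic and mitochondrial histidine enzymes, lie head to head on chromosome 5, HARS on the minus strand at chr5:140673904-140691862 and HARS2 on the plus strand at chr5:140691426-140699318, and share 437 exon bases. HARS was at 134, 121 and 147 CPM with vehicle and 121, 140.2 and 164 CPM with thapsigargin. HARS2 was at 40.3, 34.8 and 40.0 CPM with vehicle and 42.0, 43.1 and 45.7 CPM with thapsigargin. HARS overlapped between the groups, while HARS2 was slightly higher in all treated libraries. Neither passed: HARS had a log2 fold change of 0.09 (standard error 0.12, adjusted p = 0.652) and HARS2 of 0.19 (standard error 0.11, adjusted p = 0.245). The ratio of HARS to HARS2 reads was 3.34, 3.47 and 3.67 with vehicle and 2.87, 3.25 and 3.59 with thapsigargin, so it overlapped too.

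**Figure D3:**
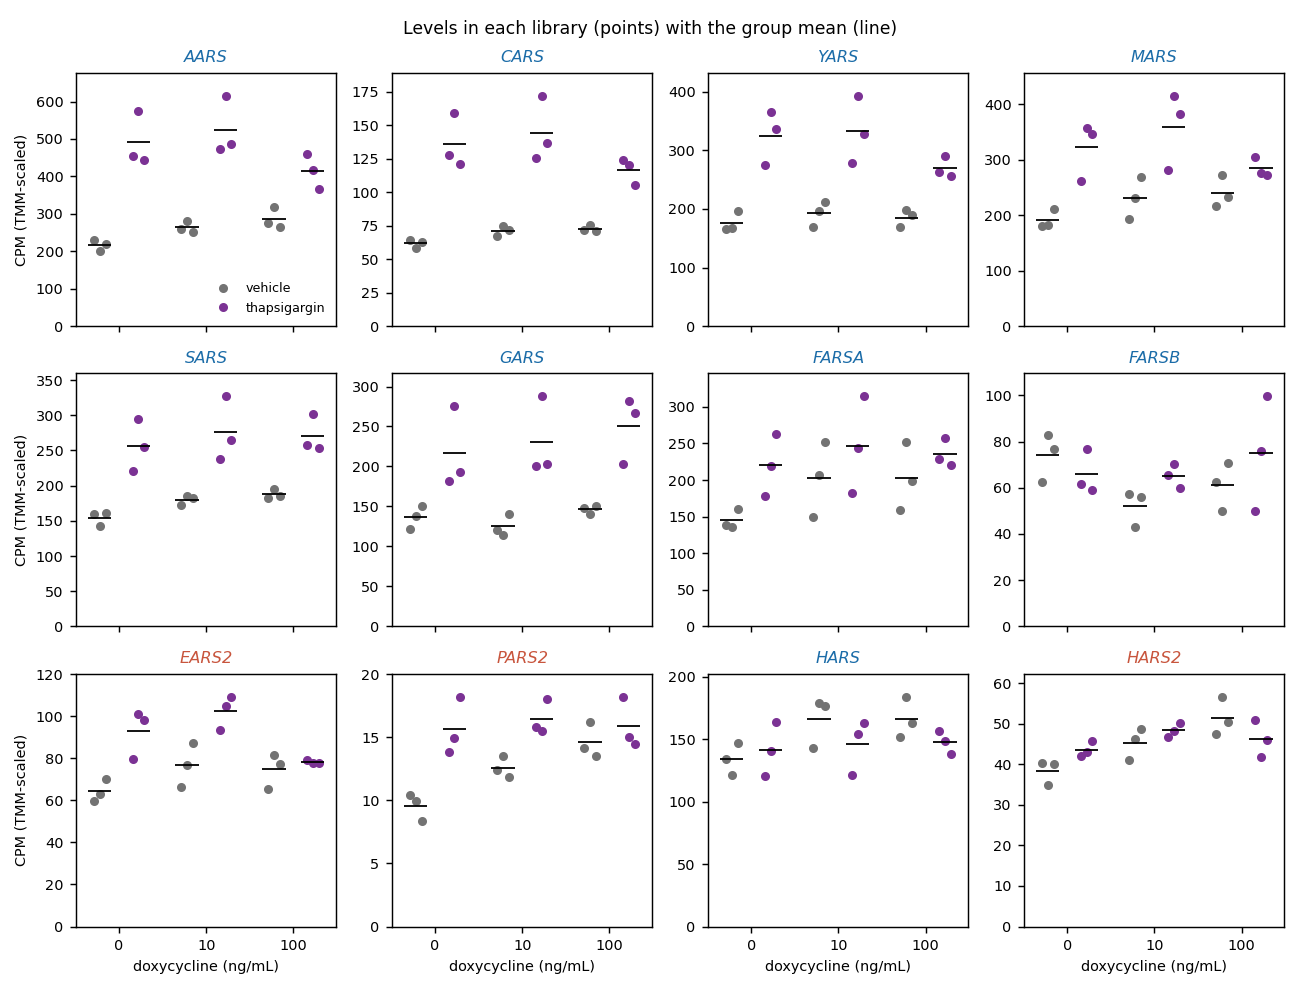
TMM-scaled CPM of 12 genes in each of the 18 libraries, by doxycycline dose (x axis, ng/mL), with vehicle in grey, thapsigargin in purple and the group mean as a line; gene names are blue for cytosolic and red for mitochondrial genes. AARS and CARS separate fully at each dose, while HARS overlaps at each dose.

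The cytosolic and mitochondrial genes for the same amino acid were set side by side in 17 pairs, with EPRS and FARS2 in 2 pairs each. In uninduced cells the cytosolic log2 fold change was the larger in 12 of 17 pairs, with a median difference of 0.22. The widest gaps were those of cysteine (CARS 1.15, CARS2 -0.18), alanine (AARS 1.19, AARS2 -0.12) and tyrosine (YARS 0.89, YARS2 -0.17). The mitochondrial gene was the higher for proline, glutamate, arginine, histidine and the FARSB pair of phenylalanine. With 10 ng/mL the cytosolic gene was the higher in 14 pairs, with a median of 0.32, and at 100 ng/mL in 15, with a median of 0.46. The exceptions at 100 ng/mL were tryptophan and histidine. These differences between genes were not tested.

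**Figure D4:**
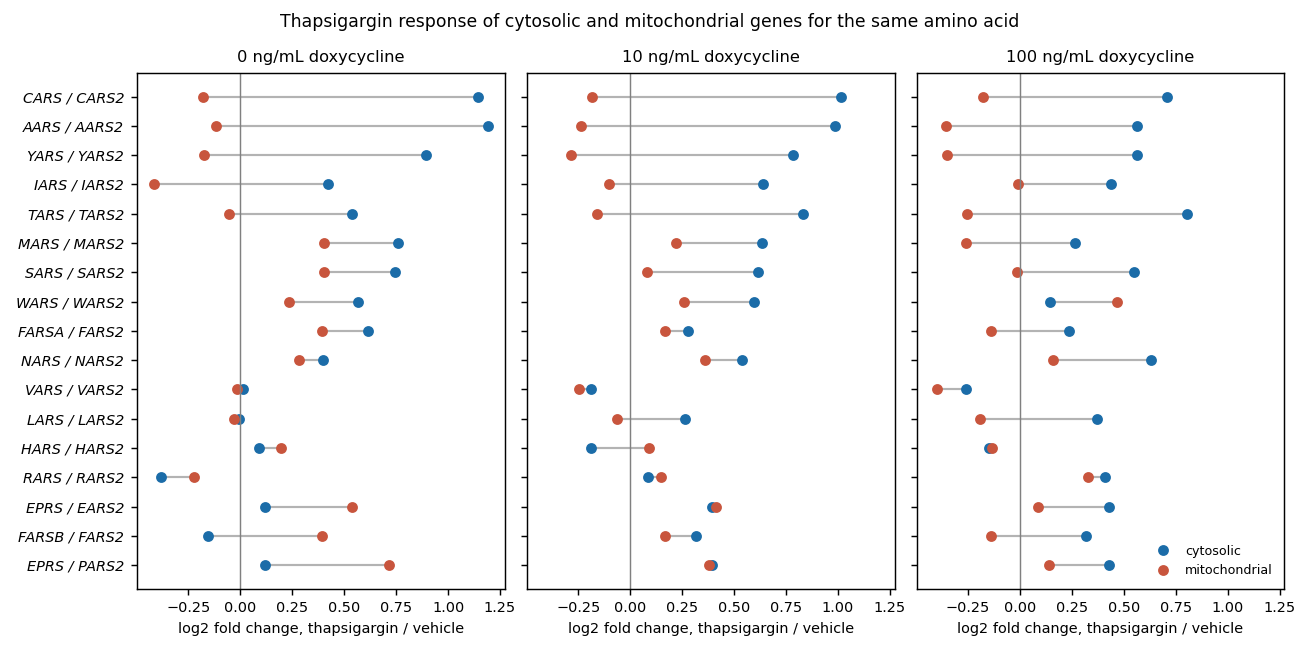
Log2 fold changes with thapsigargin at 0, 10 and 100 ng/mL doxycycline for the cytosolic (blue) and mitochondrial (red) gene of each amino acid, joined by a line. The blue point lies to the right in 12, 14 and 15 of the 17 pairs, and the cysteine, alanine and tyrosine pairs are wide apart at each dose.

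FARSA and FARSB encode the 2 subunits of 1 enzyme, but only FARSA passed. FARSA was at 138, 136 and 160.1 CPM with vehicle and 178, 219.6 and 263 CPM with thapsigargin. FARSB was at 62.4, 82.7 and 77.0 CPM with vehicle and 61.5, 76.9 and 59.2 CPM with thapsigargin, with a log2 fold change of -0.16 (standard error 0.14, adjusted p = 0.45). FARSA was higher in all treated libraries, and FARSB overlapped between the groups. The ratio of FARSA to FARSB reads was 2.22, 1.64 and 2.08 with vehicle and 2.89, 2.86 and 4.43 with thapsigargin, so the groups were apart, but the smallest two-sided p that an exact permutation test allows with 3 libraries a group is 0.1. With 10 ng/mL it was 2.60, 4.81 and 4.48 with vehicle and 2.77, 3.48 and 5.24 with thapsigargin, and at 100 ng/mL 2.55, 5.02 and 2.81 and 4.56, 3.38 and 2.21. The ratios overlapped between treatments at both of these doses. The GC content of the exons was 60.3% for FARSA and 41.6% for FARSB, and the highest ratio among the vehicle libraries, in replicate 2 at 100 ng/mL, came with the highest relation to GC content of any library (rho 0.76); the part of GC content in the ratio was not tested.

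With 10 ng/mL doxycycline, 3 cytosolic genes rose with thapsigargin and 0 fell, and 0 of the 16 mitochondrial genes passed, while 1.16% of all genes rose and 0.294% fell. AARS was at 259, 280.2 and 252 CPM with vehicle and 473, 614 and 486 CPM with thapsigargin, with a log2 fold change of 0.99 (standard error 0.13, adjusted p = 0.00229). CARS was at 67.5, 74.5 and 71.9 CPM with vehicle and 125, 172 and 137 CPM with thapsigargin, with a log2 fold change of 1.01 (standard error 0.14, adjusted p = 0.00289). TARS was at 289, 249 and 252 CPM with vehicle and 471, 543 and 399 CPM with thapsigargin, with a log2 fold change of 0.83 (standard error 0.13, adjusted p = 0.0077). In all of these the treated libraries were above the controls, with the second replicate the highest. GARS (0.88, adjusted p = 0.0123) and YARS (0.78, adjusted p = 0.0142) were just short of the threshold, and IARS, SARS and MARS were at 0.64, 0.61 and 0.63. The medians were 0.47 for cytosolic and 0.09 for mitochondrial genes, against -0.0065 for all genes. The groups were apart upwards for 11 cytosolic and 3 mitochondrial genes, against 15.6% of all genes. Downwards they were apart for 0 cytosolic and 1 mitochondrial gene, without a share over all genes to set beside them. Before adjustment, at a p under 0.05, 12 cytosolic genes were higher and 0 lower, and 3 mitochondrial genes were higher and 0 lower. Of all 14607 genes, 1989 were higher and 1613 lower at that p. DESeq2 called 9 cytosolic and 0 mitochondrial genes, and 4.87% of all genes higher. The cytosolic count was 0 without vehicle replicate 2 or without thapsigargin replicate 2, and 6 without thapsigargin replicate 3, where 2.47% of all genes rose.

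With 100 ng/mL, 0 members passed in either direction, while 0.18% of all genes rose and 0.0208% fell. With an unadjusted p under 0.05, 10 cytosolic genes were higher and 0 lower, and 1 mitochondrial gene was higher and 2 were lower. Of all 14427 genes, 2112 were higher and 1780 lower at that p. DESeq2 called 7 cytosolic genes higher, against 2.03% of all genes it tested, and 0 mitochondrial genes. AARS was at 275, 318 and 264 CPM with vehicle and 459, 418 and 366 CPM with thapsigargin, with a log2 fold change of 0.56 (standard error 0.13, adjusted p = 0.0488). GARS was at 148, 141 and 151 CPM with vehicle and 203, 282 and 267 CPM with thapsigargin, with a log2 fold change of 0.80 (standard error 0.15, adjusted p = 0.0239). For both the groups were still apart, and replicate 1 was the highest treated library for AARS but the lowest for GARS. TARS (0.80), CARS (0.71), NARS (0.63), YARS (0.56) and SARS (0.55) had adjusted p values of 0.0252 to 0.0459. PARS2 and EARS2, which rose in uninduced cells, were at 0.14 and 0.09. The medians were 0.39 for cytosolic and -0.14 for mitochondrial genes, against -0.0024 for all genes. The groups were apart upwards for 7 cytosolic and 2 mitochondrial genes, against 10.7% of all genes. Downwards they were apart for 0 cytosolic and 4 mitochondrial genes, without a share over all genes to set beside them. Without replicate 1 of the thapsigargin group, which stood apart in GC content, 9 cytosolic genes rose, among them GARS (0.91, adjusted p = 0.000289) and TARS (0.93, adjusted p = 0.000307), and 2 mitochondrial genes passed, 1 higher and 1 lower. In that fit 9.78% of all genes rose and 7.84% fell, so the mitochondrial count is near the share of all genes. With the trend on GC content and length removed, all libraries kept, 8 cytosolic genes and 1.85% of all genes rose.

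The difference in thapsigargin response between induced and uninduced cells was tested directly as an interaction. With 10 ng/mL 0 members passed (adjusted p of at least 0.779), and 0.0% of all genes rose and 0.0% fell. Taking an unadjusted p under 0.05, 1 cytosolic gene was higher and 0 members were lower, against 398 of 14857 genes higher and 266 lower. DESeq2 called 0 members. At 100 ng/mL 0 members passed, against 0.00677% of all genes higher and 0.0339% lower. At an unadjusted p under 0.05, 1 cytosolic and 2 mitochondrial genes were higher and 2 of each were lower. Of all 14768 genes, 2300 were higher and 1351 lower at that p. DESeq2 called 0 members. The nearest was AARS, with a difference in log2 fold change of -0.55 (standard error 0.18, adjusted p = 0.103), followed by IARS2 at 0.49 (standard error 0.18, adjusted p = 0.124), RARS at 0.87 (standard error 0.33, adjusted p = 0.13) and MARS2 at -0.57 (standard error 0.22, adjusted p = 0.131). The response of AARS was thus 1.19 without doxycycline and 0.56 at 100 ng/mL, but the difference did not pass. The 95% intervals of these differences reached a median of 0.44 to either side for cytosolic and 0.41 for mitochondrial genes. Without replicate 1 of the thapsigargin group at 100 ng/mL, RARS passed (1.07, adjusted p = 0.0058), as the only member. In that fit 5.79% of all genes were higher and 2.82% lower, so 1 of the 36 members is below the share of all genes. The library left out had a rho with GC content of 0.75, and replicates 2 and 3 had -0.30 and -0.72. RARS has a GC content of 41.4%, and the part of GC content in this call was not tested. The cytosolic median was 0.05 with TMM and -0.12 with library totals, and the median of all genes likewise moved from 0.04 to -0.14, so no direction was read from it.

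Doxycycline alone moved no member past the threshold, though the transgene rose strongly at 100 ng/mL. The comparisons at both doses share the uninduced libraries. In vehicle at 100 ng/mL, 0 members passed, while 0.838% of all genes rose and 7.49% fell. Before adjustment, at a p under 0.05, 5 cytosolic genes were higher and 2 lower, and 6 mitochondrial genes were higher and 0 lower. Of all 14444 genes, 1761 were higher and 2476 lower at that p. DESeq2 called 0 cytosolic and 2 mitochondrial genes, both higher, against 1.79% of all genes it tested. The nearest were mitochondrial: VARS2 at 0.53 (standard error 0.13, adjusted p = 0.0158), PARS2 at 0.57 (standard error 0.15, adjusted p = 0.0237) and TARS2 at 0.40 (standard error 0.11, adjusted p = 0.0327). PARS2 was at 10.4, 9.93 and 8.40 CPM without doxycycline and 14.2, 16.2 and 13.6 CPM with it, and the groups did not overlap. AARS was at 0.36 (standard error 0.11, adjusted p = 0.05), and TARS, raised by thapsigargin, was at -0.30 (standard error 0.11, adjusted p = 0.0982). The medians were 0.05 for cytosolic and 0.19 for mitochondrial genes, against -0.0068 for all genes. The 95% intervals reached a median of 0.24 and 0.28 to either side. Leaving out replicate 1 of the 100 ng/mL vehicle group gave 1 gene of each compartment, FARSA (0.60, adjusted p = 0.00506) and VARS2 (0.61, adjusted p = 0.00586), both higher, with 1.47% of all genes higher.

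In vehicle at 10 ng/mL 0 members passed, with 0.138% of all genes higher and 0.0552% lower. With an unadjusted p under 0.05, 3 cytosolic genes were higher and 6 lower, and 5 mitochondrial genes were higher and 1 lower. Of all 14497 genes, 2028 were higher and 2393 lower at that p. DESeq2 called 0 members. FARSA (0.48) and FARSB (-0.51) stood at opposite ends of the cytosolic set, with RARS at -0.51 and TARS at -0.38 (adjusted p of 0.0811 to 0.0886 for the 4). This comparison depended on 1 library: without replicate 1 of the 10 ng/mL vehicle group, 3 cytosolic genes rose and 4 fell, and 3 mitochondrial genes rose and 1 fell. In the same fit 8.05% of all genes rose and 10.7% fell. The library left out had a rho with GC content of -0.70, and replicates 2 and 3 of its group had 0.52 and 0.48. The GC content of the exons was 60.3% for FARSA, 41.6% for FARSB, 41.4% for RARS and 43.6% for TARS. The part of GC content in these changes was not tested.

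In thapsigargin-treated cells the members were also below the threshold. At 10 ng/mL 0 passed, and among all genes 0.0% rose and 0.0% fell. An unadjusted p under 0.05 was found for 0 members, against 178 of 14509 genes higher and 434 lower. DESeq2 called 0 members and the replicate block also called 0. All log2 fold changes lay between -0.11 and 0.23. At 100 ng/mL 0 passed, while 1.53% of all genes rose and 9.0% fell. Taking an unadjusted p under 0.05, 1 gene of each compartment was higher and 1 lower, against 2343 of 14358 genes higher and 2769 lower. DESeq2 called 0 members. IARS2 was at 0.46 (standard error 0.15, adjusted p = 0.0452), WARS at -0.54 (standard error 0.18, adjusted p = 0.0477) and RARS at 0.61 (standard error 0.24, adjusted p = 0.0907). WARS was at 123, 183 and 135 CPM in uninduced and 89.1, 114 and 101 CPM in induced thapsigargin libraries, with no overlap. Without replicate 1 of the induced group 3 cytosolic genes rose, among them RARS (0.88, adjusted p = 0.000264), and 2 mitochondrial genes rose, among them IARS2 (0.58, adjusted p = 0.00197). In that fit 13.5% of all genes rose and 13.7% fell, so these counts are near the share of all genes. RARS and IARS2 have GC contents of 41.4% and 43.8%, and the part of GC content in these calls was not tested.

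**Figure D5:**
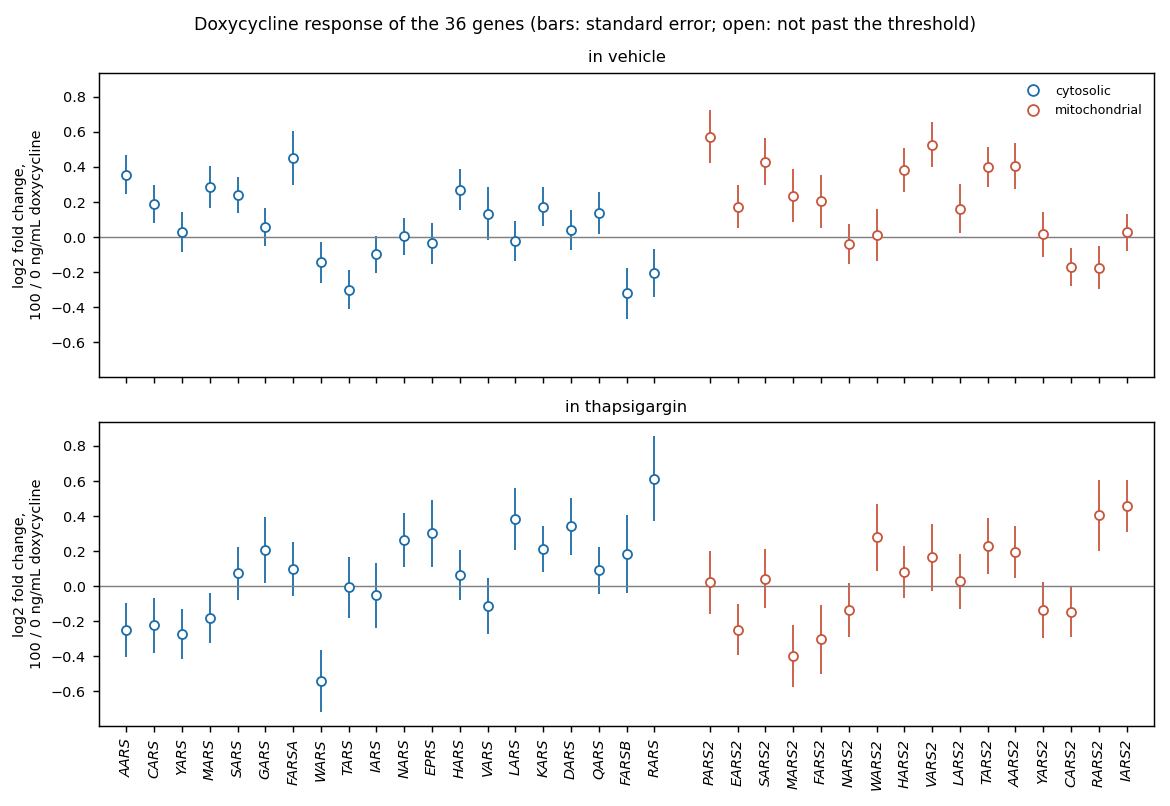
Log2 fold change of each gene at 100 against 0 ng/mL doxycycline in vehicle (top) and in thapsigargin (bottom), with bars for the standard error; all points are open because none passed. The largest values in vehicle are mitochondrial (PARS2 0.57, VARS2 0.53), and in thapsigargin RARS is highest at 0.61 and WARS lowest at -0.54.

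Most genes of the ER stress and ATF4 pathways rose. In uninduced cells with thapsigargin, 11 of 16 tested genes of the PERK-ATF4-CHOP pathway rose and 0 fell, with a median of 1.87; CHAC1, a glutathione-degrading enzyme, reached 4.58 and DDIT3 3.96, while STC2 was at 2.88 and ERO1L, ATF5 and TNFRSF10B were at -0.32, -0.27 and -0.03 without passing. ATF4 mRNA itself was at 322, 292 and 374 CPM with vehicle and 667, 845 and 878 CPM with thapsigargin, with a log2 fold change of 1.28 (standard error 0.13, adjusted p = 2.54e-05). Of 18 amino acid synthesis and transport targets of ATF4, 15 rose and 0 fell, with a median of 1.14. The glycine transporter SLC6A9 (2.92), the cystine transporter SLC7A11 (2.46) and CTH, which makes cysteine (2.16), were highest, and SLC38A2 (0.52), PHGDH (0.38) and ALDH18A1 (-0.01) did not pass. Their median of 1.14 stood beside 0.41 for the cytosolic synthetases. Of 17 ATF6 and XBP1 targets 16 rose, from PDIA6 (0.80) and EDEM1 (0.95) up to SDF2L1 (2.80), HSPA5 (2.87) and HERPUD1 (4.08), and only CANX (0.40) did not pass.

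With 10 ng/mL doxycycline, 11 of 16 PERK-ATF4-CHOP genes, 11 of 18 amino acid genes and 11 of 17 ATF6 and XBP1 targets rose with thapsigargin, and at 100 ng/mL 6, 4 and 4 did, with 0 lower in each. DESeq2 called 11, 9 and 11 at 100 ng/mL. Without replicate 1 of that thapsigargin group 11, 9 and 13 rose and 1 gene of the PERK-ATF4-CHOP list fell. The medians of the amino acid genes were 1.14, 1.11 and 0.59 at 0, 10 and 100 ng/mL. DDIT3 was at 17.7, 16.5 and 14.9 CPM with vehicle and 113, 81.2 and 90.5 CPM with thapsigargin at 100 ng/mL.

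Few genes that act beside the synthetases passed in uninduced cells. Of the 4 eIF2α kinases, EIF2AK3 (PERK) rose (1.51) and EIF2AK2, the kinase activated by double-stranded RNA, fell (-0.73), while EIF2AK1 and EIF2AK4 were at -0.17 and -0.19. Of 7 genes for tRNA export and delivery to the ribosome 0 passed, from EEF1A1 (-0.29), EEF1A2 (-0.13) and EEF1D (-0.11) to EEF1B2 (-0.08), XPO5 (0.22) and the tRNA exporter XPOT (0.44). Of 12 tested cytosolic initiation and elongation genes EIF5 rose (0.60) and EIF4E, the cap-binding protein, fell (-0.70). On the mitochondrial side, 0 of 4 tested genes for tRNA amidation and formylation passed, among them QRSL1 (0.27) and GATC (-0.26), and 0 of 9 translation factors, from MTIF3 (-0.38) to MRRF (0.25). Of 5 tested genes for tRNA editing and selenocysteine, a list that also holds the threonyl-tRNA synthetase gene TARSL2 (-0.01), from DTD2 (-0.34) to SEPSECS (0.48), 0 passed. At an unadjusted p under 0.05, 1 export and delivery gene was higher and 1 lower, and 1 amidation and formylation gene was lower. At that p 1 translation factor was higher and 2 lower, and 2 editing and selenocysteine genes were lower. Of all 14397 genes, 2703 were higher and 2470 lower. DESeq2 called 0 in each of these 4 lists.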

How the data were processed

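The 18 RNA-Seq libraries (KAPA stranded mRNA HyperPrep) came from HEK293doxERN2 cells in 6 groups of 3. The deposited values are raw read counts per gene symbol that the authors made with STAR on hg38; the version, annotation and strand setting are not given in the sources used here. Symbols of 28 of the 25435 rows had been turned into dates. The members and lists were chosen with earlier results of these data known.

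Each comparison was tested on its own groups with edgeR 4.0.16 in R 4.3.3 (quasi-likelihood test, filterByExpr with a minimum count of 10, TMM, Benjamini-Hochberg adjustment over all tested genes, adjusted p under 0.01). All 36 members could be named. Values in every library were given for the 6 cytosolic genes with the largest change among those past the threshold in uninduced cells, the mitochondrial genes past it, HARS, HARS2, GARS, KARS, EPRS and QARS; those of TARS, IARS, IARS2, FARSA, FARSB and WARS were added after their values were seen. Gene positions, exon lengths and GC content came from GENCODE 29 on GRCh38, which matched 22676 symbols, and promoters from RefSeq. Alternatives were DESeq2 1.42.0, RLE factors or library totals, no filter, all 6 groups in 1 fit, an adjusted p of 0.05, each library left out and the replicate number as a block; a correction for GC content and length (values known for 93.8% of genes) was chosen after seeing the data. The code was tested on simulated data, where 200 well-expressed genes were given a log2 fold change of 1 in either direction. With 1 spread shared by all genes, edgeR recovered 99% of them for thapsigargin in uninduced cells. For the interaction at 100 ng/mL it recovered 36.5%, so many differences of that size would be missed there. DESeq2 recovered 93% and 43%. The simulated libraries did not carry the deviations related to GC content that the real libraries had, so these shares need not hold for the real data. Replicates of every group differed by more than sampling noise. All same-numbered libraries deviated together in 1 comparison, 10 ng/mL against uninduced in thapsigargin (correlations of 0.55, 0.49 and 0.63), and the block called 0 members there. Their deviations were also related to GC content with the same signs. The rho was -0.33, -0.45 and 0.55 in uninduced and -0.47, -0.23 and 0.53 in 10 ng/mL libraries. Shared deviations therefore need not mean paired samples.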

Additional observations from a re-analysis of the deposited data

How the results depend on the processing

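The count of cytosolic genes called with thapsigargin in uninduced cells was 8 and stayed within 1.5 times of that under every setting tried except some that left out a library. The share of all genes called was less even. With all libraries kept, it ran from 8.47% (all 6 groups in 1 fit) to 28.8% (block with the GC and length correction). At 10 ng/mL doxycycline the cytosolic count was 3, but 9 with DESeq2, 7 with no filter, 7 with all 6 groups in 1 fit, 6 with the GC and length correction and 8 at an adjusted p of 0.05. Of all genes 1.45% were called in the main fit, 7.80% with DESeq2 and 2.66% with no filter. With all 6 groups in 1 fit the share was 4.50%, and with the correction 4.60%. At an adjusted p of 0.05, 1009 of 14607 genes were called. At 100 ng/mL the cytosolic count was 0, but 7 with DESeq2, 3 with no filter, 4 with all 6 groups in 1 fit, 8 with the GC and length correction and 7 at an adjusted p of 0.05. Of all genes 0.201% were called in the main fit, 5.64% with DESeq2 and 1.51% with no filter. With all 6 groups in 1 fit the share was 6.26%, and with the correction 5.42%. At an adjusted p of 0.05, 494 of 14427 genes were called. The mitochondrial count for 100 ng/mL doxycycline in vehicle was 0, but 2 with DESeq2, 1 with library totals, 1 with no filter, 2 with the GC and length correction and 3 at an adjusted p of 0.05. Of all genes 8.33% were called in either direction in the main fit, 10.8% with DESeq2 and 8.20% with library totals. With no filter the share was 8.02%, and with the correction 14.2%. At an adjusted p of 0.05, 2063 of 14444 genes were called. For 100 ng/mL in thapsigargin the mitochondrial count was 1 with the GC and length correction and 1 at an adjusted p of 0.05, where the cytosolic count was also 1. The correction called 18.4% of all genes there, and at an adjusted p of 0.05, 3018 of 14358 genes were called. The causes were not tested.

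The limit for pairing was a correlation of 0.1. Only in thapsigargin-treated cells, 10 ng/mL against uninduced, did all libraries of the same replicate number pass it. With that number as a block, the cytosolic count with thapsigargin was 12 (11 higher, 1 lower) in uninduced cells and 13 at 10 ng/mL, and the mitochondrial counts were 4 and 2. The block called 24.8% of all genes in each of these 2 comparisons, so the mitochondrial counts are at or below the share of all genes. With the block and the GC and length correction together, the cytosolic count was 12 (11 higher, 1 lower) at 10 ng/mL and 2 at 100 ng/mL. The mitochondrial count was 7 (5 higher, 2 lower) in uninduced cells, 2 at 10 ng/mL and 1 for 100 ng/mL doxycycline in vehicle. Of all genes 28.8% were called in uninduced cells, 24.6% at 10 ng/mL and 0.499% at 100 ng/mL. For 100 ng/mL doxycycline in vehicle the share was 11.7%. Same-numbered deviations in uninduced cells correlated by 0.09, 0.32 and 0.40.

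With each library left out, cytosolic counts with thapsigargin ran from 4 to 10, 0 to 6 and 0 to 9 at 0, 10 and 100 ng/mL, and mitochondrial counts from 0 to 2, 0 to 0 and 0 to 2. For doxycycline in vehicle the cytosolic counts ran from 0 to 7 at 10 ng/mL and 0 to 1 at 100 ng/mL, and the mitochondrial counts from 0 to 4 and 0 to 1. In thapsigargin at 100 ng/mL they ran from 0 to 3 and 0 to 2, and for the interaction at 100 ng/mL from 0 to 1 and 0 to 0. The highest counts came without thapsigargin replicate 1 for the thapsigargin, doxycycline and interaction comparisons of the group with 100 ng/mL and thapsigargin, and without vehicle replicate 1 for doxycycline in vehicle at either dose; more of all genes were called in these fits too, up to 27.2%.

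For single genes, settings that kept all libraries gave the same direction and call 617 times, a call gained 103 times, a call lost 2 times and a changed sign 7 times. In uninduced cells LARS (-0.01) was 0.013 with library totals, 0.015 with the GC and length correction and 0.010 with that and the block; VARS (0.01) was -0.0029 with the block, -0.047 with the correction and -0.050 with both; VARS2 (-0.02) was 0.0021 with library totals. With a library left out, EPRS ran from -0.069 to 0.26, HARS from -0.023 to 0.19, LARS from -0.17 to 0.089, VARS from -0.17 to 0.15, LARS2 from -0.17 to 0.090, TARS2 from -0.19 to 0.033 and VARS2 from -0.070 to 0.047, and EARS2 at 100 ng/mL from -0.0014 to 0.15. With all 6 groups in 1 fit, FARSA (adjusted p = 0.0541) and TARS (adjusted p = 0.0198) did not pass. Each library held at least 14876416 counts.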
